A study of Rattus norvegicus with 24 samples.

Results

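The phase II conjugation enzymes described here are the 44 genes, of 32883 in the count table, whose symbols begin with Ugt, Sult or Mgst and a digit, or with Gst, a class letter (a, k, m, o, p, s, t or z) and a digit. They comprise 1 Ugt1, 5 Ugt2 and 2 other Ugt genes, 7 Sult1 and 4 other Sult genes, 5 Gsta, 8 Gstm, 4 Gstt and 5 other cytosolic Gst genes, and 3 Mgst genes. The messenger RNA of all but 2 of them was detected in at least 1 of 24 rat libraries; Gstt4 and Ugt3a2 had 0 counts in all 24.

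Phase II enzymes attach a polar group to hormones, bile pigments, drugs and pollutants, or to the products of phase I oxidation, and so make them easier to excrete. UDP-glucuronosyltransferases (Ugt) transfer glucuronic acid from UDP-glucuronic acid, cytosolic sulfotransferases (Sult) transfer sulfate from PAPS, and glutathione S-transferases (Gst, with the microsomal Mgst) couple glutathione to electrophiles. In rat liver, several of these genes are classical targets of the aryl hydrocarbon receptor and CAR, the receptors through which polychlorinated biphenyls (PCB) are known to act, and of the oxidant sensor Nrf2.

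The study sequenced mRNA from 4 tissues (liver, brain, thymus, spleen) of Sprague-Dawley rats, 7 months old, in a group labelled SAM-exposed and a Sham group, and its title names PCB exposure. Each tissue had 3 SAM and 3 Sham libraries, which makes 8 groups and 24 libraries. The labels number the SAM libraries 1, 2, 3 and 5 and the Sham libraries 13 to 17; they give no dose, duration, sex or batch. They do not say outright that the 3 libraries of a group are 3 animals, so p-values measure the spread between these libraries.

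Liver libraries held 13.9 to 18.4 M (mega) counts, those of brain 12.9 to 19.6 M, of thymus 15.5 to 19.6 M, and of spleen 13.3 to 20.1 M. Summed markers matched the tissue labels: 10 hepatocyte genes summed to 175713 to 215582 CPM in liver and to at most 558 CPM elsewhere, and 7 thymocyte genes to 7622 to 9194 CPM in thymus and to at most 529 CPM elsewhere. CPM (counts-per-million) values were scaled within a tissue by TMM, an edgeR scaling factor that sets aside the most extreme genes. Several libraries stood apart from their group. In brain, SAM 1 and 2 carried 1016 and 949 CPM of 10 olfactory bulb markers, against 55.0 CPM in SAM 3 and 51.7, 41.4 and 57.7 CPM in Sham. In liver, mitochondrial genes took 17.8% of the counts of SAM 1 and 5.71% to 8.07% in the other 5 libraries.

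Some table entries stand for more than 1 gene. Of the 44, 38 carry a transcript accession, 37 matched a RefSeq gene and 5 matched several. The Ugt1a5 entry holds accessions of 8 Ugt1a genes, among them Ugt1a1, the bilirubin glucuronosyltransferase, and Ugt1a6, a classical dioxin-inducible gene for phenols, so its counts are a sum over the locus. The Ugt2b37 entry also covers Ugt2b15, the Ugt2b10 entry Ugt2b1, the Gstm7 entry Gstm2, and the Ugt2a1 entry Ugt2a3 and Ugt2b7. The entry named Gsta2 carries the accession that RefSeq gives to Gsta5, and the entry named Gsta5 that of Gsta2. The splitting of reads between near-identical copies is not given in the sources used here. Values of single Ugt2b, Gsta and Gstm genes are uncertain. Sult2a1, Sult2a2 and Sult2a6 share 1 entry under another name (LOC100912485), and Gstp3 is RGD1307603; the name rule does not reach these.

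The 250 bases before the start of a gene, from RefSeq on build GRCr8, are shown for genes on which the results below turn. First come 3 neighbouring Ugt2b genes of chromosome 14: Ugt2b37 and Ugt2b15, which share the entry that was lowest in SAM livers relative to Sham among the Ugt2 genes, and Ugt2b35, whose groups overlapped. Capitals mark a run of 31 bases identical in all 3, which begins 70, 82 and 91 bases before the start of Ugt2b37, Ugt2b15 and Ugt2b35. The windows are chr14:21171886-21172135, plus strand, chr14:21122616-21122865, plus strand, and chr14:21208191-21208440, plus strand.
Ugt2b37: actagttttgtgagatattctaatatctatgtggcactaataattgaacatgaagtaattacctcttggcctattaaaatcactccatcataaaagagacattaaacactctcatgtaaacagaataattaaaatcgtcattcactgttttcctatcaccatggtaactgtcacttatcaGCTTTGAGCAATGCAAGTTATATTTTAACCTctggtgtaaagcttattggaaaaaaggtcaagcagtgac
Ugt2b15: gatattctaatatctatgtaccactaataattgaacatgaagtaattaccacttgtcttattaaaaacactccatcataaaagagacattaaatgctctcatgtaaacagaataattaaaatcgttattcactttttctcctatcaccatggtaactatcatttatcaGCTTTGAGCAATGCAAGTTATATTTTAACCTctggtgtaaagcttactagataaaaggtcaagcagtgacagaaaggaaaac
Ugt2b35: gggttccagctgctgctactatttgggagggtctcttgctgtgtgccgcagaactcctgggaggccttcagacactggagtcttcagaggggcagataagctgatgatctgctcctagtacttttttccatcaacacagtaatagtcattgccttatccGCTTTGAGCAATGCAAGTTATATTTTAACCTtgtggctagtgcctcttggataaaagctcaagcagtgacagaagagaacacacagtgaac
On the same strand, 5 of 33469 rat promoter windows of this length hold the run, the other two belonging to Ugt2b and LOC134478834. The windows of Ugt2b10, Ugt2b1, Ugt2a3 and Ugt2b7 do not hold it.

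A second set shows genes with contrasting tissue patterns, with CpG dinucleotides in capitals. Sult1b1 (chr14:20771667-20771916, plus strand) was a liver transcript and its neighbour Sult1d1 (chr14:20720829-20721078, plus strand) a brain and thymus transcript with 0 counts in liver. Ugt8 (chr2:217007168-217007417, minus strand) was a brain transcript, and Gstp1 (chr1:210769706-210769955, minus strand) was present in all 4 tissues.
Sult1b1: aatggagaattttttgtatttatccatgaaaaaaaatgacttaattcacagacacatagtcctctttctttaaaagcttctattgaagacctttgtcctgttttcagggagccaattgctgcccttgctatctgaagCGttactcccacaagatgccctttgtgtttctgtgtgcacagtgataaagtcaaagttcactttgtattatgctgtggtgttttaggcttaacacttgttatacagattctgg
Sult1d1: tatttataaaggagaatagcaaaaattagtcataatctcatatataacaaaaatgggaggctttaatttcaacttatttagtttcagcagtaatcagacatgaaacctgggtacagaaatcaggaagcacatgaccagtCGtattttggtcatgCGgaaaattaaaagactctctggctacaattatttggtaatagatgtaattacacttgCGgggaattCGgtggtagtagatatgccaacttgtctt
Ugt8: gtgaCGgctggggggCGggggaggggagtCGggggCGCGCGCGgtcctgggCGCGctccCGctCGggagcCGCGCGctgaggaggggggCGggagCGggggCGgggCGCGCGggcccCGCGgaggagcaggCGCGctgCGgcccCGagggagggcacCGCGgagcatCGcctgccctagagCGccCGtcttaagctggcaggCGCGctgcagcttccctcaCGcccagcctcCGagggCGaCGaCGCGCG
Gstp1: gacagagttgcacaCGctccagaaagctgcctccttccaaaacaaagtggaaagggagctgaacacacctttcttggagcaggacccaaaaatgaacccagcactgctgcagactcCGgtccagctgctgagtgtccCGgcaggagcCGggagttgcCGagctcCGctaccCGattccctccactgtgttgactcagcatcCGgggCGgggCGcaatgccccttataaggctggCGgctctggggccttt
The windows hold 1, 4, 40 and 11 CpG in this order, and 37.2%, 34.4%, 81.2% and 59.6% of G and C. In the Gstp1 window, the antioxidant response core TGACNNNGC lies 61 bases, and the GC box GGGCGG 47 bases, before the start; the core of the aryl hydrocarbon receptor element, GCGTG, lies 238 bases before it. Searched on both strands, these letters occur in 10.1%, 30.5% and 25.9% of the 33469 windows.

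Liver held most of this enzyme set. In 1 fit over all 24 libraries, 37 of the 44 genes passed the low-count filter, and 32 of them (86.5%) were higher in liver than in the mean of the other 3 tissues at an adjusted p under 0.05, where 37.1% of all 17623 genes tested were. Another 2 (5.41%) were lower in liver, against 41.7% of all genes. The median difference of the 37 was 6.26 on the log2 scale, and that of all genes -0.31. In brain 9 of the 37 were higher than elsewhere (24.3%, against 40.6% of all genes) and 15 lower (40.5%, against 41.9%). In thymus 3 were higher (8.11%, against 38.9%) and 19 lower (51.4%, against 34.3%), and in spleen 4 were higher (10.8%, against 37.4%) and 19 lower (51.4%, against 32.2%). These edgeR counts of lower genes leave out some members with 0 counts in a tissue. Sult1d1 in liver (log2 difference -6.01) and Gsta2 in brain (-6.05) were not called. DESeq2 called more of them lower, 25 in brain, 31 in thymus, 33 in spleen and 4 in liver, and the cause was not tested. The scaling bears on these comparisons: TMM factors over the 24 libraries were 0.340 to 0.459 in liver and 1.19 to 1.49 in the other tissues. With library totals alone, the all-gene median in liver moved by -1.64 to -1.94, 14.3% of all genes were higher in liver, and 29 of the 37 members were; the difference changed sign for 3 of them, Gsto2, Gstp1 and Sult2b1.

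By family, the summed level was highest in liver for 8 of the 10 families in Sham libraries under both scalings. The exceptions were the other Sult and other Ugt groups, which were highest in brain. The following sums are CPM scaled over all 24 libraries, as mean ± SD of 3 libraries. The Ugt2 genes, which conjugate steroids, bile acids and many drugs, summed to 5490.1 ± 1772 CPM in SAM livers and 10273 ± 2312 CPM in Sham livers, and to at most 0.0942 CPM in any group of another tissue. The Mgst genes, membrane-bound glutathione transferases and relatives, summed to 7192 ± 1890 CPM in SAM livers and 6261 ± 278 CPM in Sham livers, and to between 39.4 and 71.2 CPM in the other groups. The Gstt genes, which act on small halogenated molecules, differed more among the other tissues: 112 ± 17.4 CPM in SAM and 103 ± 10.2 CPM in Sham spleens, 48.8 ± 4.09 and 45.8 ± 1.45 CPM in SAM and Sham brains, and 4.04 ± 0.886 and 5.90 ± 1.21 CPM in SAM and Sham thymi. Outside liver, the sums of the other cytosolic Gst genes were the most even, at 160.3 to 192 CPM in every group. Their liver sums were 2392 ± 431 CPM in SAM and 2168 ± 303 CPM in Sham. Not every single gene was as even. Brain minus spleen, on the log2 scale, was 2.50 for Gsto2, 1.61 for Gstz1, 0.58 for Gstk1, 0.05 for Gsto1 and -0.76 for Gstp1.

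**Figure D1:**
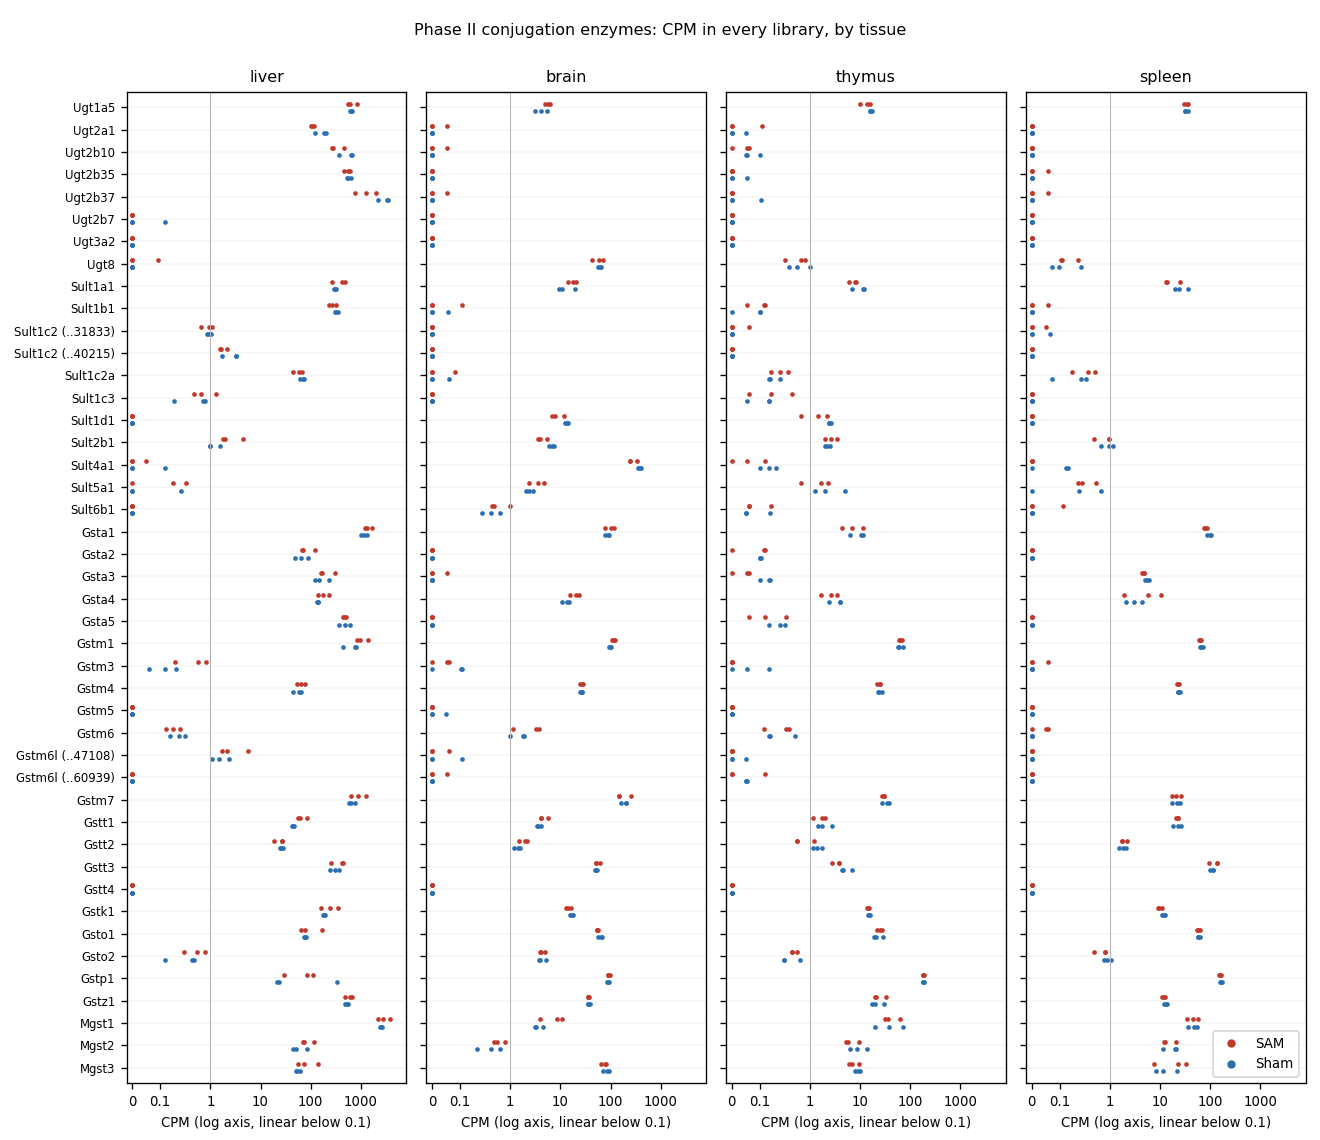
CPM (log axis, linear below 0.1) of the 44 genes in each of 24 libraries, 1 panel a tissue, SAM in red above Sham in blue, with a line at 1 CPM; CPM is scaled within a tissue. All Ugt2 genes but Ugt2b7 lie above 100 CPM in liver, and all lie near 0 elsewhere, Sult4a1 and Ugt8 stand out in brain, and Gstp1 is spread from 20.9 to 340.1 CPM in liver.

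At a Sham mean of at least 1 CPM, 10 genes were expressed in liver alone, 16 in all 4 tissues, 4 in brain alone, 5 in another combination and 9 in none. The liver-only set held Ugt2b37, Ugt2b35, Ugt2b10 and Ugt2a1, Sult1b1, which sulfates thyroid hormones and phenols, Sult1c2a and 1 of 2 entries named Sult1c2, Gsta2 and Gsta5, and 1 of 2 entries named Gstm6l. Its restriction to liver was close to complete: Ugt2b37 had 221686 counts over the 6 liver libraries and 4 over the 18 others, Ugt2b35 had 54421 and 2, Ugt2b10 had 45313 and 7, and Sult1b1 had 28929 and 13. The few counts of Gsta2 and Gsta5 outside liver, 10 and 23, were all in thymus.

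The genes expressed in all 4 tissues included the Ugt1a locus, Sult1a1, the main phenol sulfotransferase, Gsta1, Gsta4, which detoxifies lipid aldehydes such as 4-hydroxynonenal, Gstm1, Gstp1, Gstz1, Mgst1 and Mgst3. Most of these were still far higher in liver: the difference from the other tissues was 8.59 on the log2 scale for Mgst1, 7.26 for Ugt1a5, 6.61 for Gsta1 and 6.26 for Sult1a1. Gstp1, a transferase that is low in adult hepatocytes and raised in preneoplastic foci, was higher in liver by 1.16 on that scale (adjusted p = 0.00453), and its difference was -0.44 with library totals alone. It had 75.2 ± 42.3 CPM in SAM and 128 ± 184 CPM in Sham livers, Sham 13 standing at 340.1 CPM. Elsewhere it had 180.2 ± 6.06 CPM in SAM and 183 ± 6.36 CPM in Sham thymi, 157 ± 8.26 CPM in SAM and 165 ± 7.76 CPM in Sham spleens, and 92.4 ± 6.003 CPM in SAM and 89.1 ± 3.22 CPM in Sham brains. In the 24-library fit, thymus minus spleen was 0.01 ± 0.45 for it on the log2 scale, and brain minus thymus -0.76 ± 0.45 (SE, adjusted p = 0.121). That fit did not resolve the order of these 3. It uses 1 estimate of spread per gene over all tissues, which takes in the wide liver values. Scaled within their tissue, all brain libraries had 85.7 to 99.3 CPM, below the 148 to 171 CPM of spleen and 176 to 190 CPM of thymus.

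The brain set contrasted with the rest. Sult4a1, a brain sulfotransferase for which no physiological substrate is established, had 279 ± 54.2 CPM in SAM and 378 ± 23.1 CPM in Sham brains and 33243 counts over the 6 brain libraries, against 3, 12 and 4 in liver, thymus and spleen. Ugt8, which makes galactosylceramide, the main glycolipid of myelin, had 57.3 ± 14.9 CPM in SAM and 60.9 ± 3.91 CPM in Sham brains and was 8.89 on the log2 scale above the mean of the other tissues. Sult1d1, known in rodents for sulfating catecholamines, had 1123 counts in brain, 216 in thymus and 0 in liver and in spleen, while Sult1b1 beside it on chromosome 14 was a liver gene. Gstm6 and Gsto2, an omega-class enzyme that reduces dehydroascorbate, completed the brain-only set. Gsto2 belongs there only by the cut of 1 CPM, its mean in Sham spleens being 0.908 CPM. It had 435 counts in brain, 81 in spleen, 48 in thymus and 42 in liver.

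Promoters of liver-only genes held few CpG. The 11 RefSeq promoters of 8 liver-only entries held 0 to 5 CpG with a median of 1 and a median of 37.2% G and C. The 20 promoters of 13 entries expressed in all 4 tissues held 0 to 22 CpG. Their medians were 6.5 CpG and 51.8% G and C. Of these 20, 7 belong to the Ugt1a5 entry, and held at most 6. That entry is a sum over the locus, so the tissues in which each of the 7 is used are not known. Across all 33469 windows the medians were 5 CpG and 51.2%. The GC box was present in 0 of the 11 liver-only promoters and in 11 of the 20, against 30.5% of all windows. Genes of 1 cluster share sequence, so these promoters are not independent, and no test was made.

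**Figure D2:**
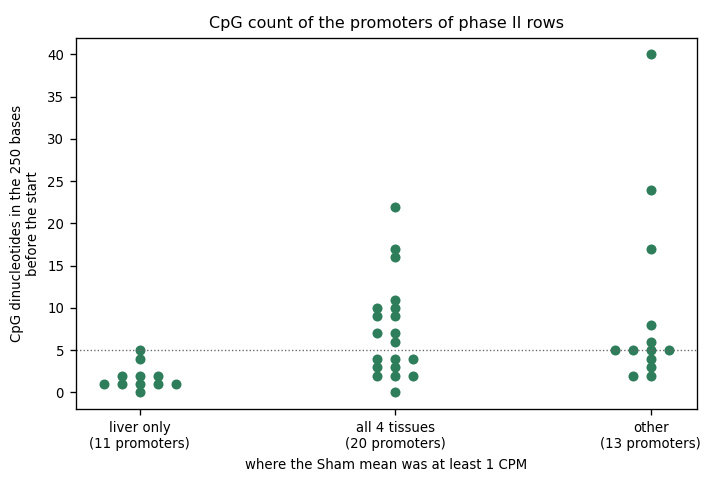
CpG dinucleotides in the 250 bases before the start (vertical axis) of RefSeq promoters, grouped by where the Sham mean reached 1 CPM; each point is a promoter and the dotted line is the median of all windows, 5. The 11 liver-only promoters lie at 0 to 5 CpG, while those of the other groups reach 22 and 40.

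No member was called in the comparison of SAM with Sham in any tissue by edgeR's quasi-likelihood test at an adjusted p under 0.05, among the 31 liver, 23 brain, 21 thymus and 20 spleen members tested. DESeq2 also called 0 members in each. Across all genes edgeR called 0% in each tissue, and DESeq2 called 2 genes of liver (0.0111%), 513 of brain (3.26%), 102 of thymus (0.676%) and 7 of spleen (0.0343%). At an unadjusted p under 0.05 stood 6 of the 31 members in liver, where 2.7% of all genes did; 7 of 23 in brain, where 20.5% did; 2 of 21 in thymus, where 6.13% did; and 1 of 20 in spleen, where 4.11% did. The median log2 fold change of the tested members was 0.27 in liver, beside 0.02 over all genes, 0.05 in brain (all genes 0.01), -0.26 in thymus (all genes -0.00) and -0.06 in spleen (all genes 0.00). The differences below therefore describe these libraries, and none passed the test. A gene expressed in 1 group only can pass the low-count filter through that group.

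**Figure D3:**
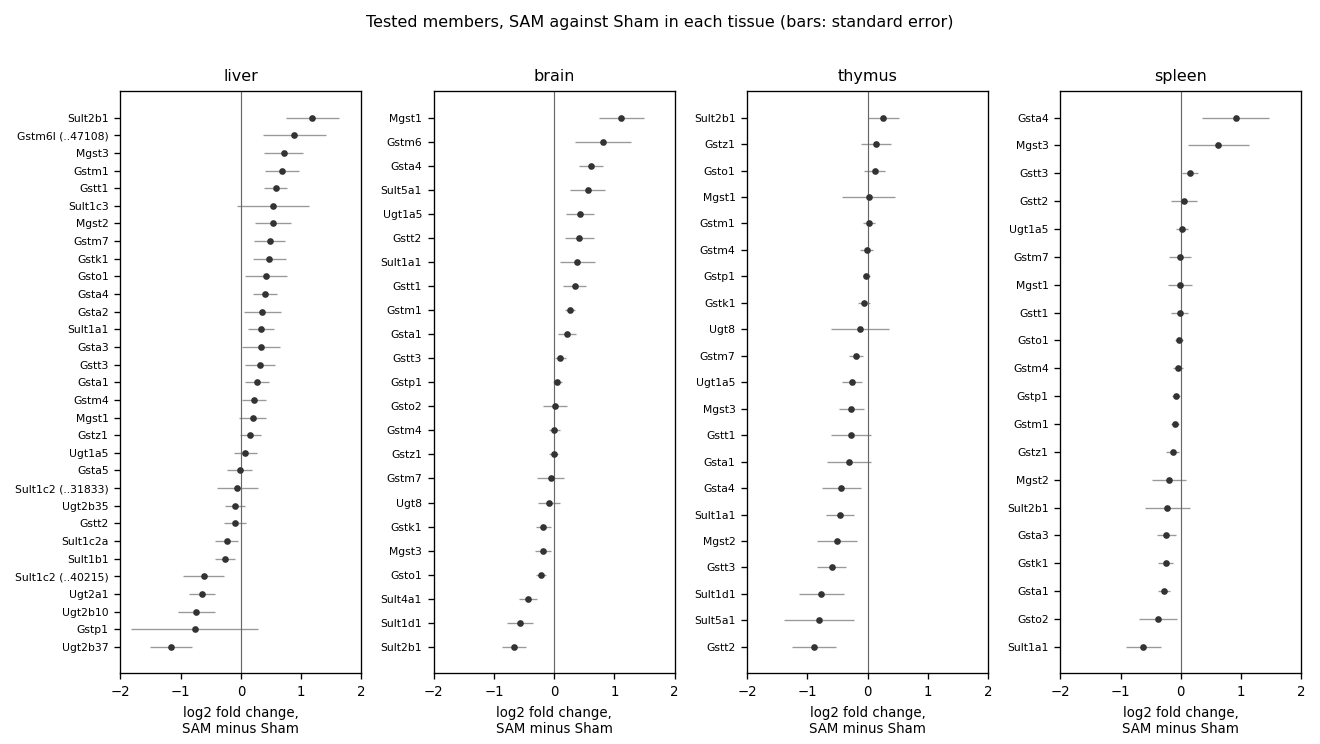
Log2 fold change, SAM minus Sham, of each tested member (points) with its standard error (bars), 1 panel a tissue, on a common axis. In liver 20 of 31 members lie right of 0, with Ugt2b37, Gstp1, Ugt2b10 and Ugt2a1 at the low end, and 16 of 21 thymus and 15 of 20 spleen members lie left of 0.

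In liver, log2 fold changes were negative for the Ugt2 genes, small for 1 of them, and positive for most glutathione transferases, 15 of 19 of which were highest in SAM 1; no member passed the test. CPM values below are in the order SAM 1, 2 and 3, then Sham 13, 14 and 15. All 4 tested Ugt2 genes had a negative log2 fold change (median -0.69), as did 4 of 6 Sult1 genes (median -0.15). Positive values were found for 4 of 4 Gstm genes (median 0.58), 3 of 3 Mgst (0.53), 4 of 5 Gsta (0.33), 2 of 3 Gstt (0.31) and 3 of 4 other cytosolic Gst (0.29). The lowest adjusted p of a member was 0.802. In bulk tissue, fewer cells of a type and less RNA per cell cannot be told apart.

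Ugt2b37 had 1265, 1987 and 777 CPM in SAM, against 2183, 3515 and 3301 CPM in Sham. Every SAM liver lay below every Sham liver, with means of 1343 ± 609 CPM in SAM and 2999 ± 715 CPM in Sham and a log2 fold change of -1.16 ± 0.35 (SE; adjusted p = 0.802). Ugt2a1, whose entry also covers Ugt2a3 and Ugt2b7, had 107, 115 and 101 CPM in SAM, against 120.4, 200.4 and 184 CPM in Sham. Its groups did not overlap either, SAM being lower by a log2 fold change of -0.64 ± 0.21 (adjusted p = 0.802), and its 6 libraries ranked in the same order as those of Ugt2b37. Ugt2b10, with Ugt2b1 in its entry, had 277, 461 and 262 CPM in SAM, against 364, 678 and 629 CPM in Sham. Here SAM 2 exceeded Sham 13, so the groups overlapped, and the log2 fold change was -0.74 ± 0.31 (adjusted p = 0.802). Ugt2b35 showed little difference, with a log2 fold change of -0.09 ± 0.17 and 455, 553 and 599.9 CPM in SAM, against 624, 559.7 and 534 CPM in Sham. The Ugt1a locus showed none beyond its spread: 839, 558 and 600.1 CPM in SAM, against 602, 629.6 and 671 CPM in Sham, and a log2 fold change of 0.07 ± 0.19 (adjusted p = 0.916). Hepatocyte marker sums overlapped between the groups, SAM livers ranging from 176809 to 215582 CPM and Sham livers from 175713 to 195398 CPM. Of the 10 hepatocyte genes 9 had a positive log2 fold change (median 0.21) and 1 a negative one, 0 of them at p under 0.05.

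Among the sulfotransferases of liver, Sult1a1 had 473, 270.3 and 414 CPM in SAM, against 291, 321 and 305 CPM in Sham. SAM 2 was the lowest of the 6, and the groups overlapped. Sult1b1 had a log2 fold change of -0.26 ± 0.17, and Sult2b1, a cholesterol sulfotransferase that is only just detected in liver, had 4.39, 1.81 and 1.997 CPM in SAM, against 1.58, 0.988 and 0.967 CPM in Sham. Its groups did not overlap, SAM being higher by a log2 fold change of 1.19 ± 0.44 (adjusted p = 0.802). The entry for the Sult2a genes, hydroxysteroid and bile acid sulfotransferases outside the name rule, had 5941, 6266 and 6201 CPM in SAM, against 8992, 9072 and 7296 CPM in Sham. All 3 SAM livers were lower there, with a log2 fold change of -0.46 ± 0.18 (SE; adjusted p = 0.802); this entry was chosen after its values were seen.

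**Figure D4:**
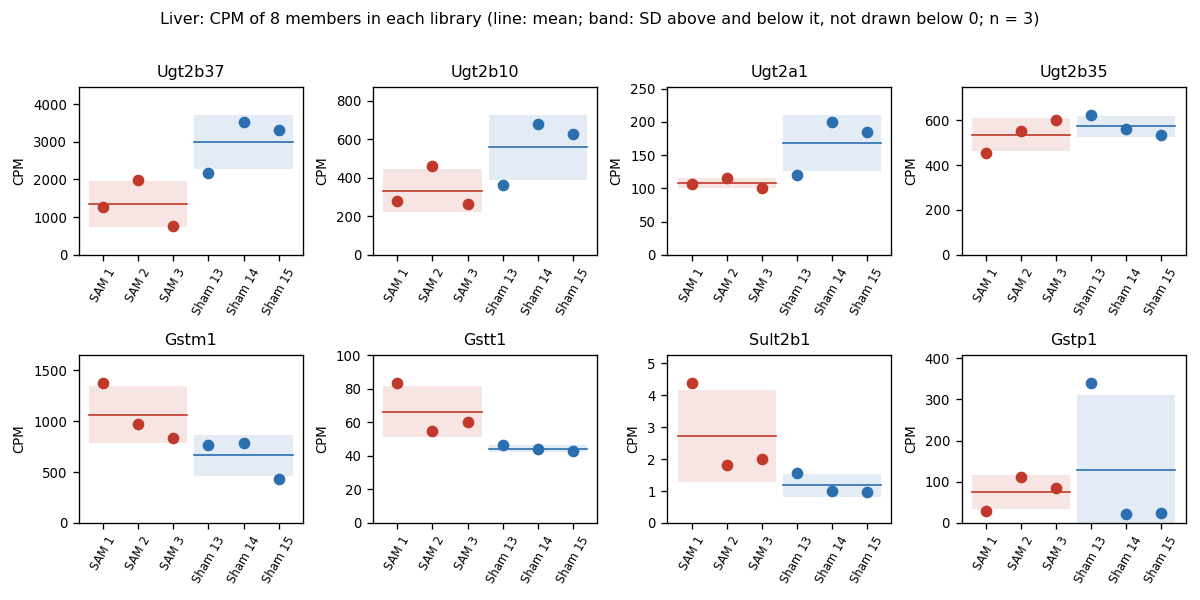
CPM of 8 members in each liver library, SAM 1 to 3 in red left of Sham 13 to 15 in blue; lines are group means and bands 1 SD of 3 libraries. SAM and Sham are separate for Ugt2b37, Ugt2a1, Gstm1, Gstt1 and Sult2b1, and for Gstp1 Sham 13 stands at 340.1 CPM above all others.

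Of the glutathione transferases of liver, Gstt1 had 83.4, 55.1 and 60.3 CPM in SAM, against 46.3, 43.9 and 42.7 CPM in Sham. The SAM livers were higher without overlap, by a log2 fold change of 0.58 ± 0.19 (adjusted p = 0.802). Gstm1, an abundant mu-class enzyme of rat liver, had 1374, 974 and 837 CPM in SAM, against 769, 785 and 433 CPM in Sham, again without overlap, and a log2 fold change of 0.68 ± 0.29 (adjusted p = 0.802). Mgst3, which reduces lipid hydroperoxides, had 139, 55.7 and 74.01 CPM in SAM, against 53.8, 60.2 and 50.3 CPM in Sham. SAM 1 was far above the other 5 libraries and the groups overlapped (log2 fold change 0.71 ± 0.32, adjusted p = 0.802). Gsta4 had 228, 137 and 175 CPM in SAM, against 137, 138 and 135 CPM in Sham (log2 fold change 0.40 ± 0.20, adjusted p = 0.802), with SAM 2 level with the Sham livers. The alpha-class genes that serve as textbook markers of induction stood within their spread. Gsta2 had a log2 fold change of 0.35 ± 0.31, with 121, 70.3 and 66.1 CPM in SAM, against 89.3, 63.7 and 48.5 CPM in Sham. Gsta5 had one of -0.02 ± 0.21, with 503, 467 and 446 CPM in SAM, against 604, 471 and 359 CPM in Sham. Mgst1, the most abundant microsomal member, had 3734, 2177 and 2731 CPM in SAM, against 2509.9, 2598 and 2428 CPM in Sham (log2 fold change 0.20 ± 0.22); its groups overlapped.

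Across liver members, 1 library recurred at the top. As scaled within liver, SAM 1 was the highest of the 6 livers for 15 of the 19 tested Gst and Mgst genes. It is the library with 17.8% mitochondrial counts. Its TMM factor over the 24 libraries, 0.340, was the lowest, and a low factor raises scaled CPM. With library totals alone, SAM 1 had the highest Gstm (2132 CPM) and Mgst (3142 CPM) sums of the livers. It lay below Sham 13 for Gsta (2236 against 2532 CPM) and other cytosolic Gst (959 against 1155 CPM). For Gstt it was the lowest liver (284 CPM). Without SAM 1 the members' median log2 fold change was 0.05 rather than 0.27, and 5 of 31 rather than 6 stood at an unadjusted p under 0.05, beside 3.55% of all genes. Single values without SAM 1 were 0.38 for Gstt1, 0.45 for Gstm1, 0.70 for Sult2b1, 0.24 for Mgst3 and 0.19 for Gsta4. Of the Ugt2 genes, Ugt2b37 and Ugt2a1 barely moved, at -1.12 and -0.64. Erythroid marker sums also differed, at 920 (SAM 1), 399.9 (SAM 2) and 627 (SAM 3) CPM against 295, 367 and 294 CPM in Sham livers. The list went both ways: of 4 tested genes, 3 were higher and 1 lower at an unadjusted p under 0.05, where 2.7% of all genes stood. The lower one was Slc4a1, with means of 5.71 CPM in SAM and 8.87 CPM in Sham (log2 fold change -0.63 ± 0.24). The part of the mitochondrial share and of the erythroid genes in these results was not tested. Gstp1 rested on another library: it had 29.1, 112 and 84.5 CPM in SAM, against 340.1, 20.9 and 23.1 CPM in Sham, Sham 13 being the high one. Its log2 fold change was -0.76 ± 1.05 with all 6 livers and 1.78 ± 0.55 without Sham 13 (adjusted p = 0.949), so its direction turns on that library. Without Sham 13 the members' median was 0.34, and 8 of 31 stood at an unadjusted p under 0.05, beside 1.38% of all genes.

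In brain, Sult4a1, Sult1d1, Sult2b1 and Gsto1 were lower and Gsta4, Gstm1 and Gstt1 higher in every SAM library than in any Sham library, though none passed the test. Groups did not overlap for 7 of the 23 tested members (30.4%, against 23.8% of all genes), 3 of them higher in SAM, as were 11.6% of all genes, and 4 lower, as were 12.2%. The other 3 tissues had 5 of 31 such members in liver (16.1%, against 10.8% of all genes), 2 of 21 in thymus (9.52%, against 11.9%) and 1 of 20 in spleen (5.0%, against 9.22%).

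With values in the order SAM 1, 2 and 3, then Sham 13, 15 and 16, Sult4a1 had 249, 247 and 342 CPM in SAM, against 378, 402 and 356 CPM in Sham. All SAM brains were below all Sham brains, SAM 1 and 2 by more than SAM 3, and the log2 fold change was -0.44 ± 0.15 (SE; adjusted p = 0.222). Sult1d1 had 7.99, 6.96 and 11.99 CPM in SAM, against 13.3, 13.998 and 12.4 CPM in Sham, also without overlap (log2 fold change -0.57 ± 0.21, adjusted p = 0.226). Sult2b1 had 3.91, 3.57 and 5.35 CPM in SAM, against 6.81, 7.51 and 5.97 CPM in Sham. Its log2 fold change was -0.67 ± 0.20 (adjusted p = 0.221), and no member of any of the 4 tissues had a lower adjusted p; brain Gsta4 had the same. Gsto1, which reduces dehydroascorbate and methylated arsenic, had 53.2, 53.2 and 56.6 CPM in SAM, against 67.2, 57.2 and 65.1 CPM in Sham; the SAM brains were lower without overlap (log2 fold change -0.22 ± 0.09). Sult5a1, whose substrate is not established, had 4.73, 3.51 and 2.35 CPM in SAM, against 2.79, 2.42 and 2.06 CPM in Sham (log2 fold change 0.55 ± 0.29), with overlap. Sult1a1 had 14.5, 17.8 and 20.3 CPM in SAM, against 10.997, 9.51 and 19.7 CPM in Sham (log2 fold change 0.38 ± 0.29), with overlap.

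On the glutathione side, Gsta4 had 23.2, 20.9 and 15.2 CPM in SAM, against 13.7, 10.7 and 14.6 CPM in Sham. The SAM brains were higher without overlap, SAM 3 only just so (log2 fold change 0.61 ± 0.19, adjusted p = 0.221). Gstm1 had 117, 123 and 109 CPM in SAM, against 95.6, 93.2 and 104 CPM in Sham, also apart (log2 fold change 0.26 ± 0.08, adjusted p = 0.222). Mgst1 had 10.9, 8.74 and 3.89 CPM in SAM, against 3.35, 3.15 and 4.43 CPM in Sham. SAM 1 and 2 were high and SAM 3 lay among the Sham brains (log2 fold change 1.12 ± 0.37, adjusted p = 0.222). Gstt1 had 4.19, 4.16 and 5.75 CPM in SAM, against 3.57, 3.39 and 4.12 CPM in Sham, higher in SAM without overlap (log2 fold change 0.34 ± 0.20). Gstp1 had a log2 fold change of 0.05 ± 0.08, and Ugt8, with 71.6, 58.3 and 41.97 CPM in SAM, against 64.7, 56.9 and 61.2 CPM in Sham, one of -0.09 ± 0.19; SAM 3 was its lowest library and SAM 1 its highest.

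**Figure D5:**
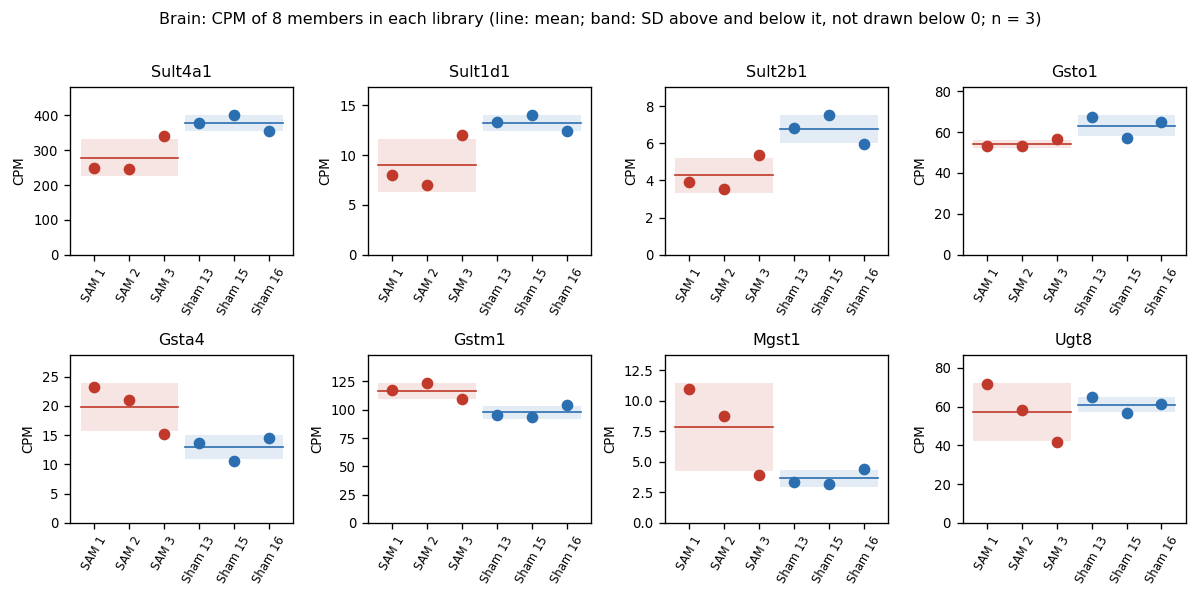
CPM of 8 members in each brain library, SAM 1 to 3 in red left of Sham 13, 15 and 16 in blue; lines are group means and bands 1 SD of 3 libraries. For Sult4a1, Sult1d1, Gsta4 and Mgst1, SAM 3 lies nearer to the Sham brains than SAM 1 and SAM 2 do.

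Marker lists differed between the brain libraries too. Olfactory bulb markers were high in SAM 1 and 2 as given above, with 7 of 7 tested genes positive at p under 0.05, and 3 of the 10 not tested. Forebrain excitatory neuron markers summed to 1593, 1920.4 and 3813 CPM in SAM, against 3610.1, 3608 and 3246 CPM in Sham, with 7 of 7 negative and SAM 1 and 2 the lowest. Oligodendrocyte markers summed to 6175, 5422 and 4619 CPM in SAM, against 6455, 7324 and 6183 CPM in Sham, with 10 of 10 negative and SAM 3 the lowest. Their part in the result was not tested. Without SAM 3, which leaves SAM 1 and 2, 10 of 25 tested members were called (5 higher and 5 lower), which is 40% beside 38.1% of all 15493 genes. The 5 higher in that fit were Mgst1 (1.42), Gstm6 (1.15), Sult5a1 (0.76), Gsta4 (0.76) and Gstm1 (0.29), and the 5 lower Sult2b1 (-0.86), Sult1d1 (-0.83), Sult4a1 (-0.62), Gstm7 (-0.36) and Gsto1 (-0.25), all as log2 fold changes. With SAM 3 as the only SAM brain, 0 members were called, and the values were -0.15 for Sult4a1, -0.14 for Sult1d1, -0.34 for Sult2b1, 0.09 for Mgst1, 0.23 for Gsta4 and 0.16 for Gstm1.

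In thymus, 16 of the 21 tested members had negative log2 fold changes, among them all 3 Gstt genes (median -0.60), both Sult1 genes (median -0.61) and both Gsta genes. A single library recurred at the top: Sham 15, which had 8.18% mitochondrial counts against 2.95% to 5.64% in the other 5, was the highest for 12 of the 21 members and for 10 of the 15 Gst and Mgst genes. Without it 15 of 21 were negative, and the median was -0.09 rather than -0.26. The part of that library's mitochondrial share was not tested. In the order SAM 1, 3 and 5, then Sham 14, 15 and 17, Gstt3 had 3.88, 2.75 and 3.86 CPM in SAM, against 4.66, 6.84 and 4.37 CPM in Sham. All SAM thymi were below all Sham thymi (log2 fold change -0.60 ± 0.24, adjusted p = 0.805). Gstt2 had 0.555, 0.561 and 1.20 CPM in SAM, against 1.16, 1.40 and 1.73 CPM in Sham, with SAM 5 just above Sham 14 (log2 fold change -0.89 ± 0.37, adjusted p = 0.805). Sult1d1 had 0.678, 2.19 and 1.45 CPM in SAM, against 2.38, 2.42 and 2.59 CPM in Sham, lower in SAM without overlap (log2 fold change -0.76 ± 0.38, adjusted p = 0.842). Sult1a1 had 8.44, 5.89 and 7.84 CPM in SAM, against 11.6, 11.8 and 7.01 CPM in Sham (log2 fold change -0.46 ± 0.24), with overlap.

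The remaining thymus members varied as much within groups as between them. Sult5a1 had 0.678, 1.68 and 2.34 CPM in SAM, against 2.02, 4.95 and 1.27 CPM in Sham, and Mgst2, which in humans can make leukotriene C4, had 5.18, 5.78 and 9.30 CPM in SAM, against 6.23, 13.9 and 8.64 CPM in Sham. In both the highest library was Sham 15. Gstm7 had a log2 fold change of -0.19 ± 0.12 and the Ugt1a locus one of -0.26 ± 0.17. Gstp1 was nearly level, with 187, 176 and 177 CPM in SAM, against 189.8, 180.3 and 178 CPM in Sham (log2 fold change -0.02 ± 0.06), as was Gstm1 (log2 fold change 0.02 ± 0.10). Mgst1 had 62.1, 31.9 and 36.3 CPM in SAM, against 36.9, 71.4 and 20.1 CPM in Sham (log2 fold change 0.02 ± 0.44). It was highest in Sham 15 and SAM 1, which also had the highest adipocyte marker sums, 1244 and 772 CPM against 54.5 to 225 CPM in the other 4. Thymic epithelium markers summed to 735, 908 and 867 CPM in SAM, against 1335, 1409 and 1272 CPM in Sham, with 8 of 8 genes negative and 7 at p under 0.05. Their part in the members' values was not tested.

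In spleen, 15 of the 20 tested members had negative log2 fold changes, small in most cases; all 5 other cytosolic Gst genes (median -0.14) and all 3 Gstm genes were among them. With the libraries in the same order as for thymus, Gsta1 had 79.4, 88.04 and 74.9 CPM in SAM, against 85.5, 102 and 107 CPM in Sham. SAM 3 exceeded Sham 14, so the groups overlapped, with a log2 fold change of -0.28 ± 0.10 (adjusted p = 0.967). Sult1a1 had 13.3, 24.8 and 14.1 CPM in SAM, against 36.7, 19.99 and 23.98 CPM in Sham (log2 fold change -0.62 ± 0.29), SAM 3 lying above Sham 15 and 17. Gsta3, an alpha-class enzyme, had 4.39, 4.90 and 4.92 CPM in SAM, against 5.15, 6.11 and 5.49 CPM in Sham. It was the only tested spleen member whose groups were separate, lower in SAM with a log2 fold change of -0.24 ± 0.15. Gsta4 had 1.88, 10.5 and 5.73 CPM in SAM, against 4.49, 3.06 and 2.08 CPM in Sham, and Mgst3 had 7.71, 33.3 and 23.02 CPM in SAM, against 21.5, 11.7 and 8.39 CPM in Sham. The 6 libraries ranked in the same order for Gsta4 and Mgst3, SAM 3 highest and SAM 1 lowest, with log2 fold changes of 0.91 ± 0.55 and 0.62 ± 0.51. Erythroid markers, with 31556, 38335 and 38703 CPM in SAM against 47683, 22719 and 25616 CPM in Sham spleens, had another order, with Sham 14 highest. The part of cell content in the order of Gsta4 and Mgst3 was not tested. Gstk1 had a log2 fold change of -0.25 ± 0.12, with overlap. Log2 fold changes were nearer to 0 for Gstz1 (-0.14 ± 0.11), Gstm1 (-0.10 ± 0.07), Gstp1 (-0.07 ± 0.07) and Mgst1 (-0.01 ± 0.20).

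Whether the SAM effect differed between tissues was tested in 1 edgeR fit over all 24 libraries. None of the 37 members passed, while 2 of 17623 genes (0.0113%) did. Sult2b1 came closest, with an adjusted p of 0.293; its log2 fold changes were 1.19 ± 0.44 (liver), -0.67 ± 0.20 (brain), 0.26 ± 0.26 (thymus) and -0.22 ± 0.37 (spleen). Gstm1 was higher in SAM without overlap in both liver and brain. Gsta4 was so in brain, while its liver groups overlapped. The thymus values of Gstm1 and Gsta4 were 0.02 ± 0.10 and -0.44 ± 0.32. A value lying apart in 1 tissue and not in another was thus not shown to be a difference between tissues, nor was such a difference excluded.

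Genes that supply or act beside these enzymes were read from lists of cofactor synthesis, other conjugation, deconjugation and regulation. None of their genes was called in any tissue. In liver, 7 of 10 tested glutathione synthesis and recycling genes were positive (median 0.18). The 6 tested genes of UDP-glucuronic acid supply split 2 positive and 4 negative, and the 6 of PAPS supply 5 and 1. Of 13 tested regulators in liver 4 were positive and 9 negative, none at p under 0.05. In brain 2 of 9 tested regulators and 1 of 12 tested glutathione genes stood at an unadjusted p under 0.05, where 20.5% of all genes did. Among thymus regulators 3 of 10 did, beside 6.13% of all genes. Of 12 spleen glutathione genes, 1 was higher and 1 lower at that p, beside 4.11% of all genes. The genes named next were picked for a low p within their list and tissue. In brain, Arnt, the partner of the aryl hydrocarbon receptor, had 40.8 ± 4.41 CPM in SAM and 31.8 ± 1.05 CPM in Sham (log2 fold change 0.36 ± 0.10), and Nfe2l2, which encodes Nrf2, had 31.4 ± 2.95 and 26.7 ± 0.722 CPM in SAM and Sham (log2 fold change 0.23 ± 0.10). Chac1, which degrades glutathione, had 8.29 ± 0.281 and 12.01 ± 1.84 CPM in SAM and Sham brains (log2 fold change -0.53 ± 0.14). In thymus Nfe2l2 lay the other way, averaging 73.5 ± 1.25 CPM among SAM and 83.3 ± 6.64 CPM among Sham libraries (log2 fold change -0.18 ± 0.07). In spleen the glutathione list went both ways, 7 of 12 tested genes being positive and 5 negative. The cystine transporter gene Slc7a11 had 26.98 ± 4.03 CPM in SAM and 35.1 ± 5.31 CPM in Sham (log2 fold change -0.38 ± 0.15), and Chac2, which degrades glutathione, had 6.33 ± 1.53 CPM in SAM and 4.35 ± 0.751 CPM in Sham (log2 fold change 0.54 ± 0.22). The groups overlapped for both.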

How the data were processed

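Total RNA was extracted with an RNeasy kit and libraries were made with a stranded mRNA kit, per the labels. The authors deposited 1 table of raw counts per gene for all 24 libraries, with no normalization. STAR 2.2.1 and the genome build rn6 are named, with no role given, per the submitters' processing notes; for the counting program, strand setting and annotation, nothing is given in the sources used here. Column names were tied to samples through tissue and animal number. They begin with SAM for both groups, so Sham status rests on the sample titles. Each tissue was fitted alone with edgeR 4.0.16 in R 4.3.3 (filterByExpr, TMM, quasi-likelihood test, two-sided, Benjamini-Hochberg over all genes tested, threshold 0.05). The exposure by tissue terms and each tissue against the other 3 were tested in 1 edgeR fit of 24 libraries with 8 group means. DESeq2 1.42.0, other scalings, no low-count filter and leaving out each library were tried; fits without SAM brain 1 and 2, and members' medians without single libraries, were chosen after seeing the data. The procedure was tested on simulated data. Named members were, per tissue, the 8 with the lowest p among those averaging at least 1 CPM, plus a set of sentinel genes; others were added as examples. The members and lists were chosen with earlier results of these data known; 155 of 159 list symbols were found. The chi-square over degrees of freedom between replicates was 6.24 to 209, so none was taken for a copy of another. Library totals were 12.9 to 20.1 M (mega) counts; before TMM scaling, 1 CPM is thus 12.9 to 20.1 counts.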

Additional observations from a re-analysis of the deposited data

How the results depend on the processing

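Under the alternatives run, the log2 fold changes of 44 named results took 494 values: 470 kept their direction and their side of the threshold, 8 passed only without SAM brain 3, and 16 changed sign. Members called stayed at 0 except in brain, where leaving out 1 library gave 0 to 10; the 10 came without SAM brain 3. All genes called moved from 0 in liver (DESeq2 2, RLE size factors 1, no filter 1, 24-library fit 3, leaving out 1 library 0 to 1), brain (DESeq2 513, 24-library fit 579, leaving out 1 library 0 to 5896, without SAM 1 and 2, chosen after seeing the data, 1), thymus (DESeq2 102, no filter 3, 24-library fit 3) and spleen (DESeq2 7, leaving out 1 library 0 to 1). DESeq2 called 4, 25, 31 and 33 members lower in liver, brain, thymus and spleen than in the other tissues, against 2, 15, 19 and 19 with edgeR; the cause was not tested. Leaving out 1 library gave 1 to 2 members lower in liver. Without SAM brain 1 and 2, Sult5a1 was at -0.042 and Gstp1 at -0.014. Leaving out 1 library, the sign turned within -0.033 to 0.36 (liver Mgst1), -0.19 to 0.19 (liver Gsta5), -1.27 to 1.78 (liver Gstp1), -0.052 to 0.12 (thymus Gstm1), -0.33 to 0.60 (thymus Mgst1), -0.047 to 0.0092 (thymus Gstp1) and -0.21 to 0.15 (spleen Mgst1). Members past the interaction test numbered 0 to 1: Gstk1 without SAM liver 2 (adjusted p = 0.0454) and Sult2b1 without SAM brain 3 (adjusted p = 0.0496). A lone SAM library is assumed to vary like the Sham group. Animal numbers may link tissues. Of 25 same-numbered pairs, 10 had correlated deviations above 0.1, with a range of -0.00732 to 0.207 and a median of 0.0519. The 83 other pairs had a median of -0.0235. The labels do not say whether equal numbers are the same animal, and this was not tested. With the animal number as replicate block the interaction called 0 members and 3 genes, against 2 genes without it, and the tissue comparison 31 members higher and 3 lower in liver, 9 and 19 in brain, 3 and 22 in thymus and 4 and 24 in spleen. DESeq2 was not run for the interaction.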
